A study of Rattus norvegicus with 8 samples.

Results

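The SOX transcription factors are the DNA-binding proteins that share the HMG box of the sex-determining factor SRY. The members described here are 9 genes, Sox2, Sox3, Sox4, Sox9, Sox11, Sox12, Sox13, Sox15 and Sox17, taken by gene symbol from the 22228 named genes of a rat expression table. That table holds 20 rows of the family in all. All 9 members passed the filter on low values (TPM of at least 1 in at least 2 libraries), as did 4 of the 11 other SOX rows and 13571 genes in all.

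SOX proteins bend DNA at short sites with the core ACAAT and mostly act beside a partner factor, so that the same protein can serve different programmes in different cells. In pluripotent cells SOX2 pairs with the POU factor OCT4 (gene Pou5f1), and together they hold up the pluripotency network. Mouse primordial germ cells, the founders of sperm and eggs, keep Sox2 on, whereas human primordial germ cells lack SOX2 and need SOX17, which is otherwise best known as an endoderm and endothelial factor. The family is divided into groups by sequence, here B1 (Sox2, Sox3), C (Sox4, Sox11, Sox12), D (Sox13), E (Sox9), F (Sox17) and G (Sox15).

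The study followed rat cells of the strain Crlj:WI, with the genotype given as wild type, through 4 groups of 2 RNA sequencing libraries. Embryonic stem cells (ESC) grew on mouse embryonic fibroblast feeders in N2B27 medium with the MEK inhibitor PD0325901 (1 µM), the GSK3 inhibitor CHIR99021 (3 µM) and rat LIF (1000 U/ml). Epiblast-like cells (EpiLC) were aggregates made from them by 60 h with bFGF (12 ng/ml), activin A (20 ng/ml) and the serum replacement KSR (1%). Primordial germ cell-like cells (PGCLC_d3) came from EpiLC aggregates after 3 days with BMP4 at 500 ng/ml, rat LIF at 1000 U/ml, SCF at 100 ng/ml and EGF at 50 ng/ml, and were sorted for a Nanos3-T2A-tdTomato reporter although the genotype label does not name it. The last group (PGCLC_d3ag3) was sorted for the same reporter after 3 further days in N2B27 with KSR at 5%, in aggregates of 5000 such cells and 50000 cells of E15.5 female rat gonads depleted of germ cells by their c-KIT. The labels do not say whether the 2 libraries of a group came from separate cultures, so the p-values measure the spread between these libraries, which may be technical.

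Levels are given as TPM (transcript abundance scaled for gene length and library) and differences on the deposited log2(TPM+1) scale, which understates changes of low genes. Calls rest on limma, fitted to all 8 libraries, with p-values adjusted over all tested genes by the Benjamini-Hochberg method and a threshold of 0.05. The median gene was not at 0 in every comparison: it stood at 0.21 in PGCLC_d3 versus EpiLC, -0.18 in PGCLC_d3ag3 versus PGCLC_d3 and 0.25 in PGCLC_d3 versus ESC, and within 0.09 of 0 in the others. Reads per TPM, relative to ESC replicate 1, ran from 1.00 to 1.50 in the ESC, EpiLC and PGCLC_d3 libraries and were 2.17 and 2.38 in PGCLC_d3ag3; read totals are not kept in TPM. The summed markers of each group were highest under its own label. The margin was smallest for 7 early germ cell markers, whose sum was 1799 and 1820.0 TPM in PGCLC_d3. That sum was 1411 and 1422 in ESC, where Dppa3 alone was at 1312 and 1306. It was 71.6 and 60.2 in EpiLC and 1397 and 1440.0 in PGCLC_d3ag3. The summed TPM of 7 stem cell markers was 2066 and 2080.5 in ESC and at most 283 elsewhere. That of 6 epiblast markers was 3219.8 and 3456 in EpiLC, where Dnmt3b alone was at 2666 and 2887, and at most 170.1 elsewhere. That of 5 gonadal germ cell markers was 1058 and 1095 in PGCLC_d3ag3, where Dazl alone was at 763 and 806, and at most 195 elsewhere. An exception among the epiblast markers was Fgf5, a defining marker of the later epiblast, which was at 0.0747 and 0 TPM in EpiLC and at most 0.0367 elsewhere. Prdm14, counted among both the stem cell and the early germ cell markers, was higher in PGCLC_d3 (88.7 and 83.4 TPM) than in ESC (16.3 and 17.5). In these bulk samples, fewer cells of a type and less RNA per cell cannot be told apart.

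Together the 20 SOX rows summed to 334 and 362 TPM in the ESC libraries, 418 and 378 in EpiLC, 606 and 609.9 in PGCLC_d3 and 346 and 335 in PGCLC_d3ag3. PGCLC_d3 stood above the 6 other libraries. The 9 members made up at least 96.2% of that sum in every library. What changed most between groups was which genes filled it: Sox2 held 63.2% and 61.6% in ESC, 6.34% and 5.62% in EpiLC, 35.8% and 37.3% in PGCLC_d3 and 56.4% and 54.2% in PGCLC_d3ag3. In EpiLC the place of Sox2 was taken by group C, at 69.6% and 68.1% of the sum. In PGCLC_d3 the largest shares after Sox2 belonged to Sox13 (17.6% and 16.5%), Sox15 (15.7% and 17.3%) and Sox12 (13.2% in each library), and Sox17 held 9.49% and 7.39%.

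**Figure D1:**
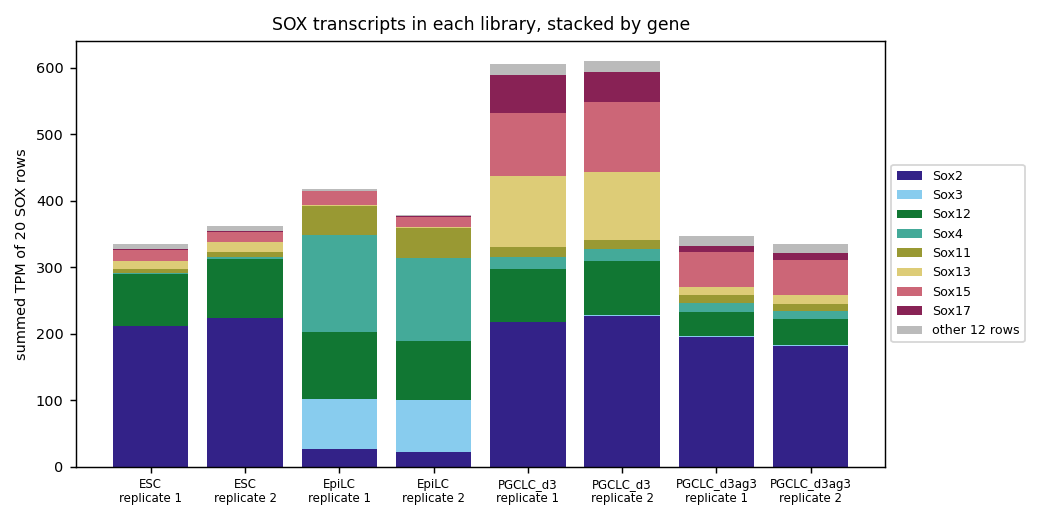
Stacked bars of TPM in each of the 8 libraries for 8 SOX genes, with the other 12 SOX rows together in grey; bar height is the summed TPM of the 20 rows. Sox2 is the largest segment in ESC, PGCLC_d3 and PGCLC_d3ag3, while Sox4, Sox12 and Sox3 are the largest in EpiLC, and the tallest bars, 606 and 609.9 TPM, are those of PGCLC_d3.

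The sequences just before the annotated starts of 4 members are shown because these genes stand for the main patterns described next: Sox2 low in EpiLC, Sox3 and Sox11 high in EpiLC, and Sox15 high in PGCLC_d3. Each is the 250 bases before the start, 5′ to 3′ on the gene's strand, from RefSeq on the build GRCr8; the expression reads were mapped to rn7, and no coordinate is carried between the builds. Of the 9 members 6 had an entry. Capitals mark matches on either strand to 5 motifs. The box bound by the factor NF-Y was searched as CCAAT. The octamer-type core, bound by OCT factors, was searched as ATGCAAA. For the SOX core the search used ACAAT. For the GC box, bound by SP factors, it used GGGCGG. The last motif, the TATA box, was searched as TATAAA.
Sox2, chr2:119464881-119465130, plus strand: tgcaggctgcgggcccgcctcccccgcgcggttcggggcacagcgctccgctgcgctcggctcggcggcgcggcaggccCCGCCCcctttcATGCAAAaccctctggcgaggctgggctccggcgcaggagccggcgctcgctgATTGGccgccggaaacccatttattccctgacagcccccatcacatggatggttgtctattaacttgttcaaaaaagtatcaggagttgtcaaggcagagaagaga
Sox3, chrX:144346972-144347221, minus strand: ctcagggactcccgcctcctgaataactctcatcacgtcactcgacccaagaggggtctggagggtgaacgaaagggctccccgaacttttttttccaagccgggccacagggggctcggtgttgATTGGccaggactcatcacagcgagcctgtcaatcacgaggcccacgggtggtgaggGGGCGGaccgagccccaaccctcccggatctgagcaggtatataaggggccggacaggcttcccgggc
Sox11, chr6:49738795-49739044, minus strand: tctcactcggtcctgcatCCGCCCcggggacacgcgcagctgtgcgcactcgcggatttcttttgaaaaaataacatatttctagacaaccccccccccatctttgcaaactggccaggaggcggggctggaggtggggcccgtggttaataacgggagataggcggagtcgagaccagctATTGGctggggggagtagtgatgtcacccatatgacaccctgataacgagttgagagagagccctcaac
Sox15, chr10:54871543-54871792, plus strand: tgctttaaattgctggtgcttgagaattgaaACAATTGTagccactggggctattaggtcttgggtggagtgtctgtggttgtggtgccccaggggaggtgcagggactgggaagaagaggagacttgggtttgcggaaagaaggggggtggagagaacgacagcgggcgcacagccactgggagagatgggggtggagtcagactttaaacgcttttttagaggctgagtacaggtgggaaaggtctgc

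The Sox2 window held a GC box, an octamer core whose first base lies 159 bases before the start, and a CCAAT box read as ATTGG. Sox3 and Sox11 each held a GC box and a CCAAT box, so Sox2, low where they are high, has both of the motifs that they share. The Sox15 window held neither and had a SOX core on each strand in overlapping letters. It had 5 CG dinucleotides against 23 in Sox2, 15 in Sox3 and 14 in Sox11, and the median of all windows was 5.00. The window of Sox13, also highest in PGCLC_d3 but not printed, held a GC box and 30 CG. The features of the Sox15 window are thus not those of the PGCLC_d3 pattern as such. Of 33469 promoter windows of this length 34.0% held a CCAAT box, 30.5% a GC box, 30.0% a SOX core, 12.9% a TATA box and 4.08% an octamer core. A match is a description of letters, and binding was not measured here.

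**Figure D2:**
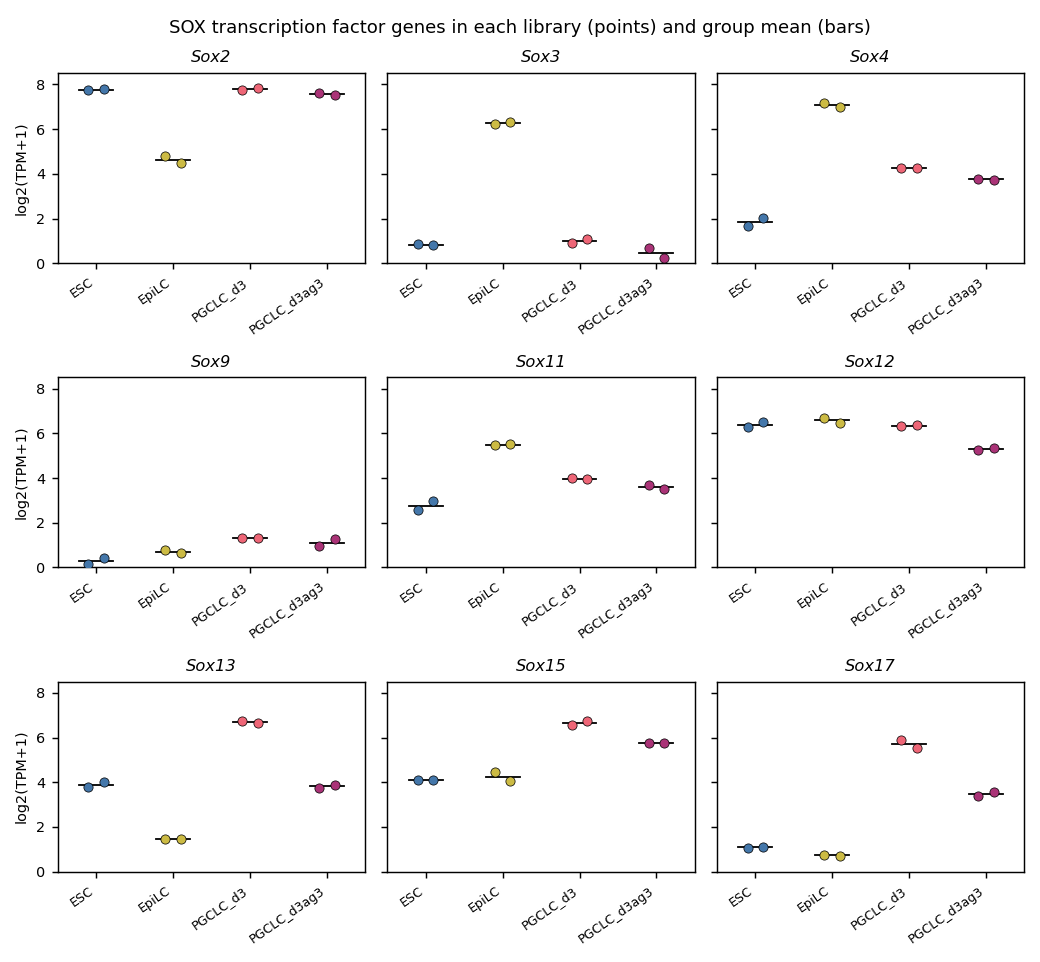
Points are the log2(TPM+1) values of the 2 libraries of each group and bars their mean, for each of the 9 SOX genes on 1 scale. Sox3, Sox4 and Sox11 are highest in EpiLC, Sox9, Sox13, Sox15 and Sox17 in PGCLC_d3, and Sox2 is low in EpiLC alone of the 4 groups.

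Group B1 holds Sox2, the partner of OCT4, and its close relative Sox3, a factor of the later epiblast and the neural plate. Sox2 was at 211 and 223 TPM in ESC, 26.5 and 21.2 in EpiLC, 217 and 227 in PGCLC_d3 and 195 and 182 in PGCLC_d3ag3. EpiLC stood far below the other groups, and the ESC and PGCLC_d3 libraries overlapped. Sox2 fell by 3.14 on the log2 scale from ESC to EpiLC (SE 0.092, adjusted p = 2.2e-09 in limma) and rose by 3.17 from EpiLC to PGCLC_d3 (adjusted p = 2.1e-09). PGCLC_d3 minus ESC was 0.03, with a 95% interval of -0.17 to 0.24 (adjusted p = 0.746 in limma), but after median-of-ratios rescaling it was -0.25 (adjusted p = 0.0306). PGCLC_d3ag3 minus ESC was -0.20 (adjusted p = 0.0666), and passed after that rescaling (0.0149), in the fit of the 2 groups alone (0.0338) and without EpiLC replicate 1 (0.0164) or 2 (0.0162). The difference between PGCLC_d3ag3 and PGCLC_d3, -0.24 with the median gene at -0.18, passed narrowly (adjusted p = 0.0407 in limma), and was -0.04 after median-of-ratios rescaling (adjusted p = 0.707). That call also ended without the filter on low values (0.0789), with a variance model without a trend (0.0931) and without any 1 of the 6 libraries of ESC, PGCLC_d3 and PGCLC_d3ag3 (0.0519 to 0.177).

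Sox3 did the reverse of Sox2. Its levels were 0.788 and 0.741 TPM in ESC, 74.5 and 79.6 in EpiLC, 0.854 and 1.14 in PGCLC_d3 and 0.597 and 0.189 in PGCLC_d3ag3. Only the EpiLC libraries were above 2 TPM. Its mean was 101 times that of ESC in EpiLC (log2 change 5.47, SE 0.16, adjusted p = 2.2e-09 in limma) and fell by 5.29 on the log2 scale to PGCLC_d3 (adjusted p = 2.7e-09). The ratio of Sox2 to Sox3 TPM was 268 and 301 in ESC, 0.355 and 0.267 in EpiLC and 254 and 200.2 in PGCLC_d3: EpiLC was the one group of the 4 with more Sox3 than Sox2. In PGCLC_d3ag3 that ratio was 327 and 959, with a Sox3 level too low for the ratio to be precise. Among ESC, PGCLC_d3 and PGCLC_d3ag3, Sox3 was called different only in PGCLC_d3ag3 versus PGCLC_d3 (-0.53, adjusted p = 0.0138), and it did not pass after quantile normalization (0.139), with a pseudocount of 5 (0.0847), without PGCLC_d3 replicate 2 (0.103) or without PGCLC_d3ag3 replicate 2 (0.0877). PGCLC_d3ag3 minus ESC was -0.36 (adjusted p = 0.0656 in limma), and it passed after quantile normalization (0.00763), after median-of-ratios rescaling (0.0431), with a pseudocount of 0.1 (0.0397) and without PGCLC_d3ag3 replicate 1 (0.00804).

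The third gene of group B1, the neural factor Sox1, is not a member but has values above 1 TPM in 1 group. Sox1 was at 5.00 and 5.09 TPM in ESC and 0.576 and 0.149 in EpiLC, a log2 change of -2.17 (SE 0.15, adjusted p = 8.7e-07 in limma), and was listed at 0 in the 4 PGCLC libraries. So each gene of group B1 had its own order over the groups.

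Group C genes are broadly expressed in embryonic progenitors. Sox4 was at 2.21 and 3.09 TPM in ESC, 145 and 126 in EpiLC, 18.0 and 18.2 in PGCLC_d3 and 12.7 and 12.2 in PGCLC_d3ag3. No libraries of different groups overlapped, and the order was EpiLC, PGCLC_d3, PGCLC_d3ag3, ESC. Sox4 rose by 5.23 on the log2 scale from ESC to EpiLC (SE 0.12, adjusted p = 6.8e-10 in limma) and fell by 2.83 to PGCLC_d3 (adjusted p = 3.1e-08), where it was still 6.82 times its ESC mean. The step from PGCLC_d3 to PGCLC_d3ag3 was smaller, at -0.50 (adjusted p = 0.00490 in limma), and was -0.16 after quantile normalization (adjusted p = 0.207).

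Sox11 had the same order of groups as Sox4 with a narrower range. It was at 5.03 and 6.71 TPM in ESC, 43.8 and 44.2 in EpiLC, 14.8 and 14.4 in PGCLC_d3 and 12.0 and 10.4 in PGCLC_d3ag3. The log2 change was 2.72 from ESC to EpiLC (SE 0.13, adjusted p = 5.6e-08 in limma) and -1.53 from EpiLC to PGCLC_d3 (adjusted p = 2.7e-06). The neighbours PGCLC_d3 and PGCLC_d3ag3 differed by 0.36 (adjusted p = 0.0291 in limma), and this call ended after quantile normalization (adjusted p = 0.883), after median-of-ratios rescaling (adjusted p = 0.218) and without any 1 of 5 libraries, namely both of EpiLC, both of PGCLC_d3 and PGCLC_d3ag3 replicate 2 (adjusted p from 0.0517 to 0.144).

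Sox12, the third gene of the group, was the steadiest of the 9 up to day 3. Its levels were 77.5 and 88.8 TPM in ESC, 102 and 87.3 in EpiLC, 79.8 and 80.5 in PGCLC_d3 and 37.3 and 39.2 in PGCLC_d3ag3. ESC overlapped both EpiLC and PGCLC_d3, which lay apart from each other, and PGCLC_d3ag3 stood below them all. EpiLC minus ESC was 0.18 with a 95% interval of -0.02 to 0.38 (adjusted p = 0.0933 in limma), and it passed after quantile normalization (0.0455) and without ESC replicate 2 (0.0390) or EpiLC replicate 2 (0.0295). PGCLC_d3 minus ESC was -0.05 with an interval of -0.25 to 0.15 (adjusted p = 0.627), but -0.34 after median-of-ratios rescaling (adjusted p = 0.00390). EpiLC and PGCLC_d3 differed by 0.23 with adjusted p = 0.0363 in limma, which was 0.284 without EpiLC replicate 1, 0.119 and 0.104 without either PGCLC_d3 library, 0.0632 without the filter on low values and 0.0774 with a variance model without a trend. From PGCLC_d3 to PGCLC_d3ag3 Sox12 fell by 1.05 (SE 0.089, adjusted p = 5.0e-06), and its mean in PGCLC_d3ag3 was 2.17 times lower than in ESC.

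Sox13 belongs to group D, whose proteins carry no activation domain of their own and act with other factors. It was at 12.8 and 15.0 TPM in ESC, 1.80 and 1.74 in EpiLC, 106 and 101 in PGCLC_d3 and 12.6 and 13.7 in PGCLC_d3ag3. The PGCLC_d3 libraries were the highest and those of EpiLC the lowest, with ESC and PGCLC_d3ag3 overlapping between them. The fall from ESC to EpiLC was by 2.42 on the log2 scale (SE 0.11, adjusted p = 3.4e-08 in limma), the rise to PGCLC_d3 5.24 (adjusted p = 3.4e-10, 58.5 times in mean TPM) and the change on to PGCLC_d3ag3 -2.89 (adjusted p = 3.4e-08). PGCLC_d3ag3 minus ESC was -0.07 with a 95% interval of -0.31 to 0.17 (adjusted p = 0.556 in limma).

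Sox17 and Sox15 were, like Sox13, far higher in PGCLC_d3 than in ESC or EpiLC. Sox17 was at 1.09 and 1.15 TPM in ESC, 0.676 and 0.639 in EpiLC, 57.5 and 45.0 in PGCLC_d3 and 9.41 and 10.7 in PGCLC_d3ag3. Every PGCLC library was above every ESC and EpiLC library, and the PGCLC_d3 libraries were above those of PGCLC_d3ag3. The log2 change from EpiLC to PGCLC_d3 was 4.97 (SE 0.14, adjusted p = 2.0e-09 in limma, 78.0 times in mean TPM) and that from PGCLC_d3 to PGCLC_d3ag3 was -2.23 (adjusted p = 8.1e-07), which left the mean 8.98 times that of ESC. The small difference between EpiLC and ESC, -0.36, passed narrowly (adjusted p = 0.0491 in limma) and was lost with the replicate number as a block (adjusted p = 0.0613), without the filter on low values (0.0822), with a pseudocount of 5 (0.367) and without any 1 of the 6 libraries of ESC, EpiLC and PGCLC_d3 (0.0503 to 0.146).

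Sox17 transcripts did not replace those of Sox2 in these cells. In PGCLC_d3 the TPM of Sox2 was 3.77 and 5.05 times that of Sox17, against 193 and 194 times in ESC, 39.2 and 33.2 in EpiLC and 20.7 and 16.9 in PGCLC_d3ag3. The relatives of Sox17 in group F, Sox7 and Sox18, were at most 0.222 TPM in any library and were not tested.

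Because Sox17 also marks endoderm and endothelium, markers of both are given beside it. Of 8 endoderm markers 4 were under 1 TPM in both PGCLC_d3 libraries and 6 in both PGCLC_d3ag3 libraries, and the summed level was 9.30 and 9.62 TPM in PGCLC_d3, 6.67 and 8.71 in PGCLC_d3ag3, 15.2 and 14.1 in ESC and 1.30 and 1.40 in EpiLC. Most of the ESC sum was Hnf4a, at 13.1 and 12.4 TPM there. Ttr was listed at 0 in PGCLC_d3, and Foxa2, Cer1 and Hnf4a in PGCLC_d3ag3. In PGCLC_d3, Foxa2 was at 2.15 and 2.18 TPM and Cer1 at 0.959 and 1.72. Gata4 was at 2.66 and 2.55 TPM in PGCLC_d3, 4.70 and 5.12 in PGCLC_d3ag3 and at most 0.232 in ESC and EpiLC. Gata6 was at 2.90 and 2.00 TPM in PGCLC_d3, 1.32 and 2.85 in PGCLC_d3ag3 and at most 0.157 in ESC and EpiLC. Of the 10 endothelial and blood markers 6 were under 1 TPM in PGCLC_d3; their sum, 32.2 and 29.6 TPM in PGCLC_d3 and 231 and 223 in PGCLC_d3ag3, was mostly Pecam1, which was as high as 103 and 105 TPM in ESC. The sum of the 10 was 256 and 265 TPM in ESC and 51.7 and 48.6 in EpiLC. Cldn5, also of this list, was at 9.18 and 8.69 TPM in PGCLC_d3, 45.7 and 37.7 in PGCLC_d3ag3 and 153 and 160.1 in ESC. The endothelial cadherin Cdh5 was at 1.67 and 1.71 TPM in PGCLC_d3 and Kdr at 0.833 and 0.981. What part such cells have in the Sox17 level was not tested.

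Sox15, the lone gene of group G, is expressed in mouse stem cells, where its protein binds many of the sites of SOX2. It was at 16.4 and 16.1 TPM in ESC, 20.7 and 15.47 in EpiLC, 94.9 and 106 in PGCLC_d3 and 52.3 and 52.9 in PGCLC_d3ag3. ESC and EpiLC overlapped, with a difference of 0.13 and a 95% interval of -0.14 to 0.40 (adjusted p = 0.356 in limma; 0.0171 without EpiLC replicate 2), and both PGCLC groups were above them. The log2 change from EpiLC to PGCLC_d3 was 2.42 (SE 0.12, adjusted p = 6.4e-08 in limma) and that to PGCLC_d3ag3 was -0.92 (adjusted p = 8.1e-05). After the gonadal step Sox15 was the second most abundant of the SOX rows, at 15.1% and 15.8% of their sum.

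Sox9, a factor of Sertoli cells and cartilage, was low throughout. It was at 0.119 and 0.326 TPM in ESC, 0.689 and 0.555 in EpiLC, 1.49 and 1.48 in PGCLC_d3 and 0.917 and 1.45 in PGCLC_d3ag3. The groups did not overlap, although PGCLC_d3ag3 replicate 2 lay close to PGCLC_d3. PGCLC_d3 was above ESC by 1.03 (SE 0.15, adjusted p = 1.2e-04 in limma) and above EpiLC by 0.62 (adjusted p = 0.00384). The difference between EpiLC and ESC, 0.41 with adjusted p = 0.0333, was lost after quantile normalization (0.423), with a pseudocount of 5 (0.0872) and without ESC replicate 1 (0.203) or either EpiLC library (0.142 and 0.0620). PGCLC_d3ag3 minus PGCLC_d3 was -0.20 with an interval of -0.53 to 0.14 (adjusted p = 0.259), and 0.06 after quantile normalization, and it passed at -0.38 without PGCLC_d3ag3 replicate 2 (0.0479).

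PGCLC_d3ag3 cells had been mixed with somatic cells of female gonads. The summed level of 17 gonadal somatic markers was 22.9 and 27.8 TPM in PGCLC_d3ag3, 15.1 and 13.4 in PGCLC_d3, 23.7 and 22.5 in EpiLC and 9.0 and 11.3 in ESC, and 8 of the 17 were under 1 TPM in both PGCLC_d3ag3 libraries. The 17 moved in both directions. Among those that rose, Wt1 was at 1.28 and 1.17 TPM and Amh at 3.14 and 1.20 in PGCLC_d3ag3, against at most 0.0614 and 0.305 in PGCLC_d3. Star fell, from 3.15 and 3.12 TPM in PGCLC_d3 to 0.551 and 0.741 in PGCLC_d3ag3. Fst was not called different (-0.32, adjusted p = 0.374 in limma). Foxl2, not tested, was at 0.289 and 0.461 TPM in PGCLC_d3ag3. The globin gene Hba-a1 was at 44.1 and 35.5 TPM in PGCLC_d3ag3 and at most 2.12 elsewhere. The part of other cells in the SOX levels of PGCLC_d3ag3 was not tested. Of 10 fibroblast and feeder markers, the sum was 39.2 and 39.1 TPM in ESC, 62.1 and 108 in EpiLC, and at most 16.8 in the PGCLC libraries.

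By comparison, the members' changes read as follows. From ESC to EpiLC 7 of 9 members were called, 4 higher and 3 lower, with 2 not passing, while 67.3% of all tested genes were called (35.4% higher and 31.8% lower). From EpiLC to PGCLC_d3 all 9 were called, 5 higher and 4 lower, against 74.9% of all tested genes (47.3% higher and 27.6% lower). A count of calls this near the background says little about the members. The sizes lay further apart: the median absolute log2 change of the members was 2.42 from ESC to EpiLC and 2.83 from EpiLC to PGCLC_d3, where that of all tested genes was 0.46 and 0.60. Calls with a log2 change of at least 1 numbered 5 and 7 of 9 in these steps, against 23.3% and 29.6% of all tested genes. The members were chosen with earlier results of these data known. Their sizes, here and in the comparisons below, are therefore a description and not a test of the family.

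In the step from PGCLC_d3 to PGCLC_d3ag3, called the gonadal step here for short, no member was called higher. These groups also differ by 3 further days, in medium and in reads per TPM. Such differences cannot be told apart from the gonadal cells. From PGCLC_d3 to PGCLC_d3ag3 8 of 9 members fell, 0 rose and Sox9 did not pass in limma, with 70.4% of all tested genes called (44.8% lower and 25.7% higher). At an unadjusted p under 0.05 the counts were the same, 0 higher and 8 lower. The median absolute change of the members, 0.53, was close to that of all tested genes, 0.49, and 3 members (Sox12, Sox13 and Sox17) fell by at least 1, while 22.0% of all tested genes were called with a change of that size in either direction. The count was 5 after quantile normalization, without Sox3, Sox4 and Sox11, and 6 after median-of-ratios rescaling, without Sox2 and Sox11; it was 5 without PGCLC_d3 replicate 2. Of all called genes 36.4% were higher in PGCLC_d3ag3 on the deposited scale, 49.9% after quantile normalization and 49.1% after median-of-ratios rescaling. For PGCLC_d3 versus EpiLC the same share was 63.2%, 50.8% and 49.2%, with the members at 5 higher and 4 lower on each scale. For PGCLC_d3 versus ESC it was 64.4%, 52.3% and 51.0%.

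**Figure D3:**
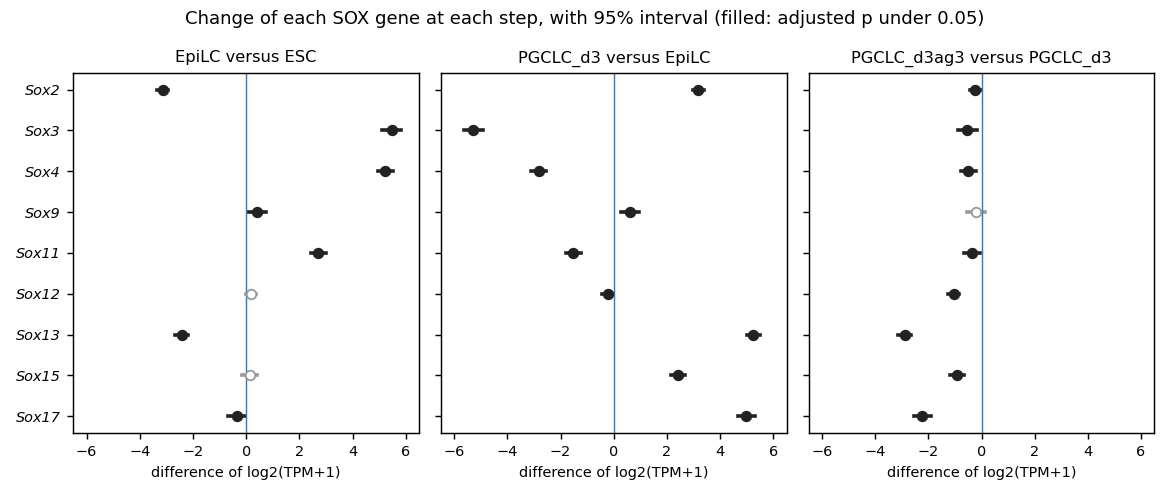
Difference of log2(TPM+1) for each of the 9 SOX genes at each of the 3 steps, with its 95% interval from limma; filled points passed an adjusted p of 0.05. The first 2 panels have opposite signs for all members but Sox9 and Sox15, and in the third no point lies above 0; after quantile normalization Sox9 is at 0.06 there.

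Set against ESC, the starting cells, 6 members were higher in PGCLC_d3 and 0 lower in limma, with 49.6% of all tested genes higher and 27.4% lower (77.0% called); an unadjusted p under 0.05 gave the same counts. The 6 were Sox4, Sox9, Sox11, Sox13, Sox15 and Sox17, each by at least 1 on the log2 scale, a size that 34.5% of all tested genes reached with a call. After median-of-ratios rescaling 2 further members, Sox2 and Sox12, were called lower. In PGCLC_d3ag3, 5 members were higher than in ESC and Sox12 was lower, with 77.3% of all tested genes called (42.5% higher and 34.8% lower), and 4 of 9 members against 34.4% of all tested genes changed by at least 1. All 9 differed between PGCLC_d3ag3 and EpiLC, 5 higher and 4 lower, with 77.7% of all tested genes called (41.0% higher and 36.7% lower), and 8 of 9 against 34.2% changed by at least 1. These comparisons share libraries with each other, so their counts are not separate support. In that last comparison the call of Sox9 (0.42, adjusted p = 0.0267 in limma) ended in the fit of the 2 groups alone (0.0529), with a pseudocount of 0.1 (0.0768) and without EpiLC replicate 2 (0.120) or PGCLC_d3ag3 replicate 2 (0.159).

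Among the other SOX rows, Sox8 and Sox21 were at the level of the lower members. Sox8, of group E like Sox9, was at 0.184 and 0.486 TPM in ESC, 0.476 and 0.173 in EpiLC, 6.19 and 7.12 in PGCLC_d3 and 7.11 and 8.97 in PGCLC_d3ag3. It rose by 2.54 on the log2 scale from EpiLC to PGCLC_d3 (SE 0.18, adjusted p = 7.0e-07 in limma), and in both PGCLC groups its TPM was above that of Sox9. PGCLC_d3ag3 minus PGCLC_d3 was 0.23 for Sox8 (adjusted p = 0.256 in limma), and it passed at 0.61 after quantile normalization (adjusted p = 0.0125). Sox21, a repressor of group B2, was at 1.41 and 1.15 TPM in ESC, 0.169 and 0.105 in EpiLC, 6.78 and 6.0 in PGCLC_d3 and 1.98 and 1.52 in PGCLC_d3ag3. That is the order of groups of Sox13 apart from the middle pair, with log2 changes of -1.0, 2.70 and -1.43 over the 3 steps (adjusted p = 1.2e-04, 8.2e-08 and 1.1e-05 in limma). Sox5, of group D, was called higher in PGCLC_d3 than in EpiLC (0.74, adjusted p = 5.9e-04), at 0.788 and 1.02 TPM. The 7 rows not tested (Sox6, Sox7, Sox10, Sox14, Sox18, Sox30 and Sry) were at most 1.34 TPM in any library, the highest being Sox14 in PGCLC_d3ag3 replicate 1, with 0.0260 in replicate 2.

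The factors that SOX proteins pair with changed in their own orders. Pou5f1 was at 517 and 516 TPM in ESC, 289.8 and 265 in EpiLC, 181 and 191 in PGCLC_d3 and 127 and 133 in PGCLC_d3ag3, so it fell at each step (log2 change -0.90, -0.57 and -0.51, adjusted p = 5.5e-07, 1.0e-05 and 3.4e-05 in limma), also where Sox2 rose. Pou3f1, a POU factor of the later epiblast, had its peak in EpiLC, as Sox3 and Sox4 did: 1.08 and 1.06 TPM in ESC, 210.4 and 218 in EpiLC, 26.9 and 26.7 in PGCLC_d3 and 4.22 and 4.88 in PGCLC_d3ag3. In PGCLC_d3 it was above both ESC libraries, like Sox4, where Sox3 was not called different from ESC (0.17, adjusted p = 0.341 in limma). Nanog dipped in EpiLC as Sox2 did, with 933 and 912 TPM in ESC, 5.55 and 4.24 in EpiLC, 148 and 169 in PGCLC_d3 and 142 and 157 in PGCLC_d3ag3. It stayed below its ESC level in PGCLC_d3, where the Sox2 libraries overlapped those of ESC. The germ cell factor Tfap2c peaked in PGCLC_d3 like Sox17, at 487 and 498 TPM there, 34.8 and 37.2 in ESC, 8.22 and 8.71 in EpiLC and 307 and 294 in PGCLC_d3ag3.

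Of 19 tested partner factors in a list of 20, 4 rose and 12 fell from ESC to EpiLC, 10 rose and 7 fell from EpiLC to PGCLC_d3, and 4 rose and 8 fell in the gonadal step. Over all tested genes the shares that rose and fell were 35.4% and 31.8%, 47.3% and 27.6%, and 25.7% and 44.8% in these steps, so that the counts of the last 2 steps lay near the background. The list medians were -0.90, 0.54 and -0.20, with those of all tested genes at 0.04, 0.21 and -0.18. Esrrb, a nuclear receptor of naive cells, fell by 6.10 from ESC to EpiLC (adjusted p = 4.0e-10 in limma). The germ cell regulators Prdm14 and Prdm1 rose by 6.36 and 5.81 from EpiLC to PGCLC_d3 (adjusted p = 1.1e-10 and 3.4e-10). In the gonadal step Otx2, an epiblast factor, rose by 1.90 and Klf2, of the naive network, by 1.98, from 1.36 ± 0.259 to 7.81 ± 0.548 TPM and from 33.1 ± 4.63 to 134 ± 19.4 TPM (mean ± SD, n = 2 libraries).

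**Figure D4:**
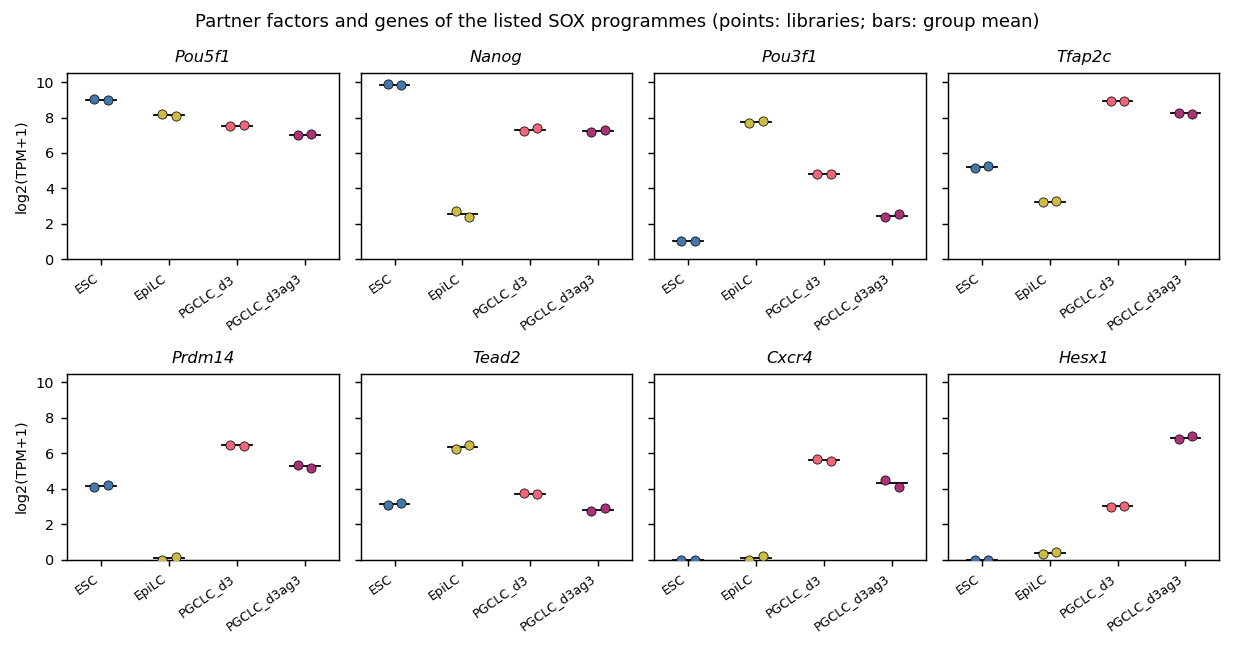
Points are the log2(TPM+1) values of the 2 libraries of each group and bars their mean, for 4 partner factors in the upper row and for Prdm14, Tead2, Cxcr4 and Hesx1 in the lower. Pou3f1 and Tead2 are highest in EpiLC, Tfap2c, Prdm14 and Cxcr4 in PGCLC_d3 and Hesx1 in PGCLC_d3ag3, while Pou5f1 falls at each step.

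Genes long used as targets of the OCT4 and SOX2 pair were called in both directions at each step. Of 16 (Sox2 itself among them), 5 rose and 10 fell from ESC to EpiLC, 7 rose and 8 fell from EpiLC to PGCLC_d3 and 4 rose and 9 fell in the gonadal step, with medians of -0.88, -0.21 and -0.27. All tested genes had medians of 0.04, 0.21 and -0.18, and 35.4% of them rose and 31.8% fell in the first step, 47.3% and 27.6% in the second and 25.7% and 44.8% in the third. Fgf4, a growth factor gene with a composite OCT and SOX enhancer, was at 138 and 148 TPM in ESC, 85.4 and 70.7 in EpiLC, 0.119 and 0.241 in PGCLC_d3 and 0.867 and 0.132 in PGCLC_d3ag3. It was thus lowest in both groups sorted for the reporter, where Sox2 was high. Utf1, another such gene, was at 899 and 834 TPM in ESC, 1865 and 1813 in EpiLC, 1432 and 1504 in PGCLC_d3 and 1430.2 and 1489.9 in PGCLC_d3ag3, and it rose by 1.09 where Sox2 fell (adjusted p = 9.4e-08 in limma). Fgf4 had the largest called change of that list from EpiLC to PGCLC_d3 (-6.06), and Utf1 was chosen from the list after its values were seen. Dppa3, a maternal factor and germ cell marker, had the dip of Sox2, with log2 changes of -5.30 and 3.53 over the first 2 steps, and Tdgf1, a NODAL co-receptor, fell by 4.09 from EpiLC to PGCLC_d3. The NODAL inhibitors Lefty2 and Lefty1 fell by 6.46 and 3.67 in the gonadal step, and Spp1 by 2.19.

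Of 14 tested genes of the endoderm programme around SOX17, in a list of 18, 7 rose and 3 fell from EpiLC to PGCLC_d3, against 47.3% and 27.6% of all tested genes, a count near the background. In the gonadal step 2 rose and 8 fell, against 25.7% and 44.8% of all tested genes. Medians were 0.49 and -1.18, with all tested genes at 0.21 and -0.18. Cxcr4, a chemokine receptor of endoderm and of migrating germ cells, was listed at 0 in ESC, at 0 and 0.141 TPM in EpiLC, 50.1 and 46.8 in PGCLC_d3 and 21.7 and 16.3 in PGCLC_d3ag3. Eomes, which acts upstream of endoderm, fell by 4.10 from EpiLC to PGCLC_d3 (adjusted p = 2.4e-09 in limma). The basement membrane genes Col4a1 and Col4a2 fell by 4.11 and 3.67 in the gonadal step and Gsc rose by 2.71. From ESC to EpiLC 3 rose and 5 fell, against 35.4% and 31.8% of all tested genes, with a median of -0.12 against 0.04, among them Lama1 (-6.03), Hhex (-4.99) and Col4a1 (4.59).

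Few neural genes were high enough to test, 5 of 14 listed. From ESC to EpiLC 3 rose and 2 fell (median 0.39, with all tested genes at 0.04), from EpiLC to PGCLC_d3 3 rose and 2 fell (2.34, with all at 0.21) and in the gonadal step 1 rose and 2 fell (-0.22, with all at -0.18). Of all tested genes 35.4% rose and 31.8% fell in the first step, 47.3% and 27.6% in the second and 25.7% and 44.8% in the third, and 5 genes are too few to set against these shares. Pax6 was listed at 0 in ESC, EpiLC and PGCLC_d3. Nes, an intermediate filament gene of progenitors, was at 0.233 and 0.472 TPM in ESC, 4.27 and 4.40 in EpiLC, 24.6 and 27.6 in PGCLC_d3 and 14.1 and 12.8 in PGCLC_d3ag3, so its peak was not that of Sox3. The homeobox gene Hesx1 was listed at 0 in ESC and was at 0.269 and 0.348 TPM in EpiLC, 6.89 and 7.23 in PGCLC_d3 and 109 and 126 in PGCLC_d3ag3. Zic2 fell by 0.92 from ESC to EpiLC, and the cadherin Cdh2 fell by 1.42 and then rose by 2.88 over the first 2 steps; it fell by 0.54 in the gonadal step, but by 0.18 after quantile normalization (adjusted p = 0.237 in limma), and adjusted p was 0.0546 without PGCLC_d3 replicate 2.

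Of 6 genes listed as targets of group C, 3 were tested: 1 rose and 2 fell from ESC to EpiLC (35.4% and 31.8% of all tested genes), 1 rose and 1 fell to PGCLC_d3 (47.3% and 27.6%) and 2 fell in the gonadal step (44.8%). Their medians were -3.22, -0.02 and -0.74, with all tested genes at 0.04, 0.21 and -0.18. Tead2, a Hippo pathway factor, was highest in EpiLC like Sox4 and Sox11 but, unlike them, lay below ESC in PGCLC_d3ag3, with 7.49 and 8.09 TPM in ESC, 73.8 and 87.3 in EpiLC, 12.5 and 12.1 in PGCLC_d3 and 5.65 and 6.51 in PGCLC_d3ag3. The neuronal genes Tubb3 and Stmn2 went the other way, with falls by 3.22 and 5.98 from ESC to EpiLC, and Stmn2 fell by 0.74 in the gonadal step (adjusted p = 0.0196 in limma, 0.118 after quantile normalization, 0.0540 without the filter, 0.0639 with a pseudocount of 5, and 0.0536, 0.0809 and 0.154 without PGCLC_d3 replicate 1, PGCLC_d3 replicate 2 or PGCLC_d3ag3 replicate 1).

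Within the family, several members had like profiles. Pearson correlations over the 8 libraries were 1.00 between Sox4 and Sox11, 0.98 between Sox15 and Sox17, 0.91 between Sox9 and Sox15, 0.88 between Sox13 and Sox17, 0.86 between Sox9 and Sox17 and 0.81 between Sox13 and Sox15. They were 0.87 and 0.89 for Sox3 with Sox4 and Sox11, and -0.99, -0.88 and -0.89 for Sox2 with Sox3, Sox4 and Sox11; the 8 points are 4 pairs of replicates, so these values describe 4 group levels. Among 7784 genes whose group means span at least 1 on the log2 scale, those most like Sox2 were Dapk3 (r = 0.9985), Igtp (0.9985) and Dcaf11 (0.9975). For Sox3 they were Epha7, Sephs1 and Vrtn (0.9975, 0.9975 and 0.9971), and for Sox4 Rps6ka1, Llgl2 and Sox11 (0.9980, 0.9976 and 0.9958). Sox4 was likewise the gene most like Sox11, and Prps2 reached 0.9925 with it. For Sox17 they were Eya2 (0.9990), Cyp4v3 (0.9980) and Oasl2 (0.9976), and for Sox15 Artn (0.9964), Cdk17 (0.9953) and Gtf2ird2 (0.9950). Sox13 was most like Mfsd14b (0.9986), Tle5 (0.9953) and Ssh1 (0.9953), Sox12 most like Ddx17 (0.9933), Cenpb (0.9916) and Tesc (0.9902), and Sox9 most like Lancl2 (0.9891), Lrig1 (0.9857) and Phka1 (0.9806). How many genes were alike differed by member. Of the 7784, 152 genes reached 0.98 with Sox17, 119 with Sox3, 25 with Sox11 and 4 with Sox9. For most members a value of 0.98 over 4 groups therefore does not single out a gene.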

How the data were processed

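RNA sequencing of 8 rat libraries, 4 groups of 2, was used, grouped and numbered by their titles. The labels' protocols name PicoPure for RNA isolation, SMART-Seq v4 for cDNA (Ultra Low Input version) and KAPA Hyper Prep for the libraries. Per the submitters' processing notes, the tools were bcl2fastq 2.20, cutadapt 1.1.6, HISAT2 2.1.0 and featureCounts of Subread 1.6.5, and the build was rn7. The values are log2(TPM+1) as deposited by the authors. How reads of mouse feeder cells or of similar SOX genes were assigned is not given in the sources used here. In the RefSeq gene table (GRCr8) Sox2 lies inside a long noncoding RNA gene and Sox15 overlaps Mpdu1 by 31 bases, and as the use of strand is not given in the sources used here, reads of these pairs cannot be told apart there.

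The table's 11066 blank rows were left out. A gene was tested if at least 2 libraries reached TPM 1, in limma 3.58.1 under R 4.3.3 (2-sided, lmFit then eBayes with a mean-variance trend), on all groups together, with 4 residual degrees of freedom, for 6 comparisons. Relative depth came from the steps between low values. The fit and the depth estimate were tested on simulated data. The 9 members and the gene lists were chosen with earlier results of these data known. Named are all SOX rows, up to 3 called genes with the largest change per list and step, the partner factors Pou5f1, Nanog, Pou3f1 and Tfap2c, and the 3 genes most correlated with each member, leaving out clone-style symbols; others are markers or are said to be chosen later. Of the genes this rule names, 2 are not reported here. The lists are other SOX genes, SOX partner factors, targets of OCT4 and SOX2, the endoderm programme, neural genes and group C targets. Alternatives were quantile normalization, median-of-ratios rescaling, other filters and pseudocounts, another variance model, the 2 groups alone, the replicate number as a block, and leaving out each library.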

Additional observations from a re-analysis of the deposited data

How the results depend on the processing

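Each of the 54 changes (9 members, 6 comparisons) was recomputed under 17 other settings, and 37 kept their direction and their side of the threshold in all of them. The counts of members called moved by over 1.5 times in PGCLC_d3ag3 versus PGCLC_d3 alone, from 8 to 5 after quantile normalization and to between 5 and 7 when 1 library was left out (5 without PGCLC_d3 replicate 2). The direction of PGCLC_d3 minus ESC turned for Sox2 (-0.25 after median-of-ratios rescaling, -0.01 to 0.07 when 1 library was left out), for Sox3 (-0.31 after quantile normalization) and for Sox12 (-0.15 to 0.05 when 1 library was left out). When 1 library was left out it also turned for Sox13 in PGCLC_d3ag3 versus ESC (-0.18 to 0.04) and for Sox15 (-0.07 to 0.33) and Sox8 (-0.18 to 0.15) in EpiLC versus ESC. In PGCLC_d3ag3 versus PGCLC_d3 it turned for Sox9 (0.06 after quantile normalization), Sox5 (-0.14 to 0.17 when 1 library was left out) and Nanog (0.11 after median-of-ratios rescaling, -0.18 to 0.01 when 1 library was left out). None of these had passed the threshold on the deposited values, and the cause was not tested. Same-numbered libraries showed no shared deviation over the genes (correlations of -0.0374 to 0.0662). With 2 libraries a group this cannot tell whether the numbers pair them. With the replicate block 6 of 9 members were called in EpiLC versus ESC against 7 without it, as Sox17 was lost. No other count of members changed. The filter at TPM 5 leaves out Sox9. With 2 libraries a group and levels near 1 TPM, small differences of Sox3, Sox9 and Sox17 lie near the low end of the scale, and read totals are not kept in TPM.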
